A study of Mus musculus with 6 samples.

Results

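Alternative exon end events are exons of 1 locus that overlap but begin or end at different positions, because the splicing machinery joined the same exon at more than 1 splice site. The deposited event tables list 315379 splicing and transcript-end events of assembled loci, of which 23713 are of the alternative exon end type. The events described here carry a reference gene identifier, average at least 1 FPKM (fragments per kilobase of event, scaled to the size of the library) over the 6 libraries, and overlap at least 1 other such event of their locus. That rule left 1710 events in 816 overlapping groups, in 708 loci, out of 7340 alternative exon end events with an identifier and that level. FPKM over all 6 libraries chose the members, so their level is a description. Each event's share of the summed FPKM of its group is what was compared. The rule did not use the share itself, but the share is made from the same FPKM. The share of an event that met the minimum only through the DHT or only through the oil libraries is therefore not free of the rule.

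The libraries were made from hippocampus of healthy male C57BL/6 mice aged 14 months. The DHT group received dihydrotestosterone, an androgen that binds the androgen receptor and is not converted to estradiol, by subcutaneous injection once a day for 14 days (3 libraries). The oil group received medical corn oil on the same schedule (3 libraries). No surgery is named for either group in the labels, and the sources used here give no hormone dose. They also do not say whether a library is 1 animal or a pool, so p-values measure only the spread between these libraries.

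An intron is bounded by a donor site, the 5′ splice site, which usually opens with GT, and an acceptor site, the 3′ splice site, which usually closes with AG. A choice between 2 donors changes where the upstream exon ends, and a choice between 2 acceptors changes where the downstream exon begins. If the stretch between both sites lies in coding sequence and its length is a multiple of 3 bases, the reading frame is kept. Acceptors a codon apart are a well known case, common in brain as in other tissues.

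Sequence around both alternative ends could be read for the acceptor pair of Coro6, which encodes a coronin of the actin cytoskeleton. Both ends lie in the promoter window that RefSeq's tables (build GRCm38.p6) hold for that gene, on the plus strand of chromosome 11. Coro6 was picked for that reason after its values were seen. Each line gives 22 bases of intron and then the first 8 bases of the exon, and the capitals mark the AG that closes the intron.
Coro6 longer exon, starting at base 77463852, window chr11:77463830-77463859: cactcactcctcccttccacAGctcgcagg
Coro6 shorter exon, starting at base 77463911, window chr11:77463889-77463918: atactccctatctttgccccAGccatgagc

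Both stretches run through pyrimidine-rich sequence into an AG, 59 bases apart, and both exons end at base 77464110. The longer Coro6 exon took 66.8%, 25.4% and 30.5% of the pair's FPKM in the DHT libraries, against 50.6%, 15.2% and 40.1% in the oil libraries. The groups overlapped, and the log2 ratio of the longer to the shorter exon differed by 0.28 ± 0.80 (SE) between DHT and oil (limma, Benjamini-Hochberg adjusted p = 0.973). Over the alternative exon end events that lie in such windows, 221 of 227 acceptors (97.4%) followed an AG and 149 of 153 donors (97.4%) preceded a GT. The submitters' processing notes name mm9, but the coordinates matched GRCm38.p6 at these sites, and all positions here are given as GRCm38.

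Most groups were plain pairs. Of the 816 groups, 756 held 2 events, 49 held 3, and 11 held 4 to 6. The events of 465 groups (57.0%) differed at the acceptor, those of 314 (38.5%) at the donor, and those of 37 at both ends. In 752 pairs the events shared exactly 1 end, 447 of them differing at the acceptor and 305 at the donor. The median difference in length of these pairs was 53.5 bases, with 48 bases at acceptors and 63 bases at donors, and the range was 2 to 11065 bases.

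The length differences fell mostly on multiples of 3. A multiple of 3 separated 451 of the 752 pairs (59.97%), made up of 268 of 447 pairs at acceptors and 183 of 305 at donors. It was 87.2% among pairs that differed by 1 to 12 bases (68 of 78), 68.6% from 13 to 60 bases (229 of 334), 54.1% from 61 to 300 bases (112 of 207) and 31.6% beyond 300 bases (42 of 133). A difference of 3 bases separated 28 pairs, all of them at the acceptor, while 32 differed by 12 bases and 31 by 15 bases.

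**Figure D1:**
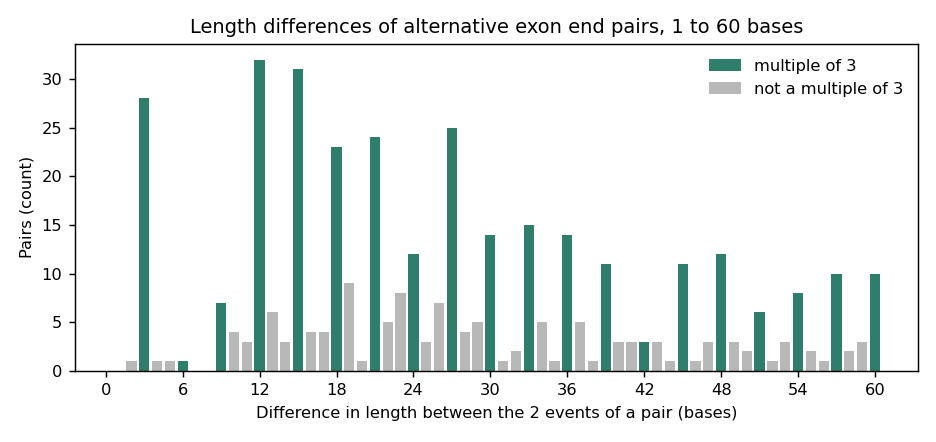
Number of pairs (vertical axis) by the difference in length of the 2 events in bases (horizontal axis, 1 to 60 bases), with multiples of 3 in green and other lengths in grey. The tallest bars stand at 12 bases (32 pairs), 15 bases (31 pairs) and 3 bases (28 pairs).

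Overlapping alternative exon end pairs that did not become members, at any level, were multiples of 3 in 2976 of 7893 cases (37.7%). They differed by at least 10 bases, whereas the 39 member pairs under 10 bases all came from loci with a further overlapping event of this type. The 558 member pairs with no further event, also at least 10 bases apart, were multiples of 3 in 342 cases (61.3%). These member pairs still differ from the non-members in level, since both their events average at least 1 FPKM. They differ in length too, with a median difference of 51 bases against 74 bases. No test was made of the rates of multiples of 3, and whether each stretch is coding was not checked. Acceptors made up 57.5% of the non-member pairs, against 59.4% of the member pairs.

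Long differences were of another kind. The longest event of 148 groups spans exactly the exon, intron and exon of a retained-intron event of the same locus, and 92 of the 133 pairs that differed by more than 300 bases were of that sort. In larger groups such an event can bridge neighbouring exons. Bin1, which encodes amphiphysin II, a membrane-bending protein of endocytosis, is the group with the most events (6), and its longest event covers several ordinary exons that do not overlap each other. The share of such a long event then measures how much of the locus was assigned to the form that keeps the intron, not a choice between adjacent splice sites.

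The longest event held a median share of 43.6% over the 797 groups that were above 0 in every library, and it held the majority in 341 of them. Its median by library was 43.7%, 41.4% and 42.2% in DHT and 43.4%, 45.6% and 43.1% in oil, so the libraries of both groups interleaved. The median was near 50% among pairs that differed by up to 300 bases (50.4%, 49.8% and 51.5% in the size classes 1 to 12, 13 to 60 and 61 to 300 bases). Beyond 300 bases it was 26.2%, and the longer event held the majority in 24 of 125 pairs.

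**Figure D2:**
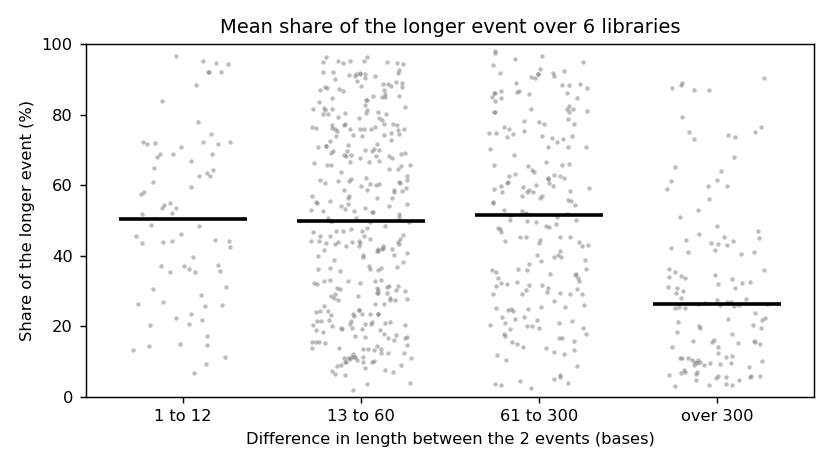
Mean share of the longer event over 6 libraries in percent (vertical axis) for pairs grouped by their difference in length in bases (horizontal axis); each point is a pair and each line the median. The medians are 50.4%, 49.8%, 51.5% and, beyond 300 bases, 26.2%.

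The shares varied widely among libraries of the same group. The SD of the longest event's share had a median of 10.4 percentage points among the DHT libraries and 11.5 among the oil libraries. The range over all 6 libraries had a median of 32.9 points, with 26.6 points in groups of at least 10 FPKM and 38.8 points in fainter groups. In 40 groups the 6 shares lay within 10 points, and in 207 they spread over more than 50.

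The files give no reads behind an event, so the depth of a share is unknown. Values as low as 1.2e-05 FPKM are listed, which are not steps of whole reads. Of the 1710 events, 759 (44.4%) have the same 6 values as an event of another type in their locus, and 286 are listed at 0 in at least 1 library. In 297 of 797 groups the longest event held at most 0.5% or at least 99.5% of the group in at least 1 library, and in 8 of them both extremes occurred among the 6 libraries. Where a locus held several groups, 6 of 127 pairs of groups, each covering a different stretch of the gene, summed to the same FPKM in all 6 libraries within 0.1%.

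Shares that barely moved came from genes of many kinds. The longer acceptor form of Tecr, which encodes a reductase of very long-chain fatty acid synthesis, held 96.6% ± 0.39 in DHT and 96.6% ± 0.64 in oil (SD, n = 3 each). The longer donor form of Camk1d, a calcium/calmodulin-dependent kinase, held 27.0% ± 0.57 in DHT and 25.6% ± 0.20 in oil. For Birc6, an inhibitor of apoptosis, the longer donor form, 27 bases longer, held 83.4% ± 1.73 in DHT and 83.5% ± 1.49 in oil. These 3 were named after their values were seen, as the 3 groups with the smallest range over the libraries.

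The groups with the highest summed FPKM belonged to long noncoding RNAs and housekeeping or neuronal genes. In Ptgds, which encodes the prostaglandin D synthase secreted by meninges and choroid plexus, the donor form longer by 33 bases had 150.6, 112.6 and 125.5 FPKM in DHT and 110.2, 116.3 and 88.2 FPKM in oil. The shorter form had 60.8, 62.0 and 60.3 FPKM in DHT and 45.7, 57.6 and 40.5 FPKM in oil. The longer form's share was 67.8% ± 3.39 in DHT and 68.7% ± 1.91 in oil (SD, n = 3 each), so the shares overlapped while the gene's level differed among libraries.

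Other abundant groups were far less even. In Malat1, a nuclear noncoding RNA, the longest of 5 events took 100%, 35.6% and 100% in DHT and 0%, 19.9% and 100% in oil. In Dnm1, which encodes the dynamin of synaptic vesicle endocytosis, the donor form longer by 26 bases took 23.0%, 56.5% and 53.4% in DHT and 17.1%, 47.7% and 21.9% in oil. The groups overlapped in both of these genes. Also among the 10 most abundant were groups of Ndrg4, Map2, Hsp90aa1 and 3 groups whose identifier names a small or predicted gene inside another gene: Mir770 in Meg3, Gm49759 in Pkm and Mir5114 in Scd2.

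The share test asked whether the injected hormone went with another use of exon ends. It compared the log2 ratio of each event to the rest of its group between DHT and oil, with 0.5 FPKM added to both, by limma over all 1710 events. No event passed a Benjamini-Hochberg adjusted p of 0.05 (0 of 1710, 0.0%), and 83 events had an unadjusted p under 0.05 (4.85%). In the 756 groups of 2 events both events give the same contrast with opposite sign, so the 1710 tests are not separate. Counting the longest event of each group, 42 of 816 groups (5.15%) had an unadjusted p under 0.05, 20 with a higher share in DHT (2.45%) and 22 with a lower share (2.7%). In 72 of the 797 groups (9.03%) the DHT and oil shares did not overlap, 36 higher in DHT and 36 lower (4.52% each). Between the group means, 497 groups differed by up to 10 percentage points and 45 by more than 30.

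**Figure D3:**
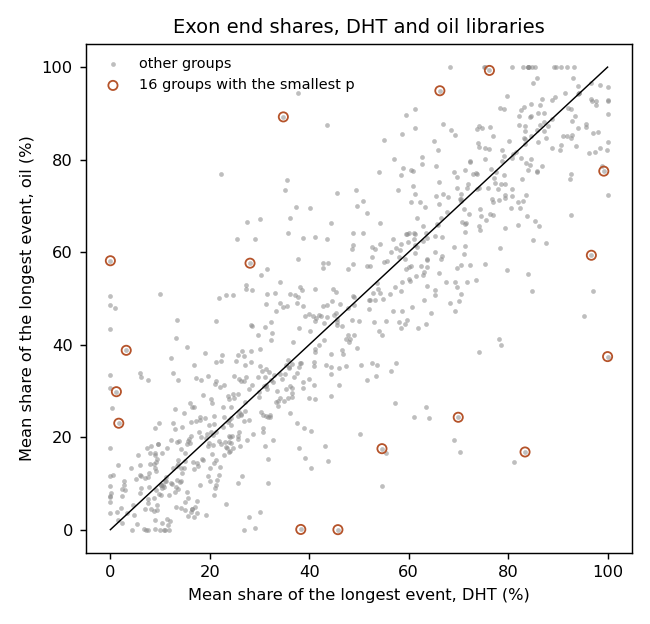
Mean share of the longest event in percent in the DHT libraries (horizontal axis) and the oil libraries (vertical axis, n = 3 each) for 797 groups, with the line of equality and orange rings on the 16 groups with the smallest p. The 497 groups within 10 points lie along the line, and the ringed groups stand away from it on both sides.

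The groups described next are the 8 with the smallest p in each direction. None passed the adjusted threshold in the share test (limma, Benjamini-Hochberg adjusted p from 0.351 to 0.660), and their values describe these 6 libraries. The values of single libraries are given because many of these events were listed at or near 0 in some of them. In Cyc1, Alas1, Apc, Wac, Ccser2, Cdipt and Zfp382, among others, an event met the minimum only through the DHT or only through the oil libraries. The rule thus favoured a difference in share there, and the p-values of such groups are given as a description. The direction of each was the same in every alternative processing that kept the group. Since the groups were picked on these same values and their shares did not overlap, a kept direction lends them no weight.

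Cyc1 encodes cytochrome c1, a subunit of respiratory complex III. Its acceptor pair at chr15:76344280-76344498 differs by 22 bases. The longer exon had 5.78, 4.95 and 4.14 FPKM in the DHT libraries, against 0.0022, 0.0033 and 0.0040 FPKM in the oil libraries. The shorter exon had 5.92, 7.23 and 12.5 FPKM in DHT, against 12.5, 8.32 and 4.97 FPKM in oil. Thus the longer exon made up 49.4%, 40.7% and 24.9% of the pair in DHT and under 0.1% in each oil library, while the shorter exon overlapped between the groups. The log2 ratio was higher in DHT by 3.41 ± 0.63 (SE; limma, Benjamini-Hochberg adjusted p = 0.351).

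The same Cyc1 exon was also the 1 member called in the level test across all 61049 events of at least 1 FPKM. It averaged 4.96 FPKM in DHT and 0.0032 FPKM in oil, so it met the minimum only through the DHT libraries, and an exon chosen that way had to differ in level. Its call is therefore given as a description. On the log2(FPKM + 0.5) scale it was higher in DHT by 3.43 ± 0.22 (SE; limma, Benjamini-Hochberg adjusted p = 0.0300). Leaving out any 1 of the 6 libraries ended that call, with adjusted p from 0.0502 to 0.0831, and so did a pseudocount of 0.1 FPKM or testing with no minimum level.

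Mapk8ip3, which encodes JIP3, a scaffold that ties the JNK kinases to kinesin-driven axonal transport, appears with 2 donor pairs whose longer form differed in opposite directions. At chr17:24917995-24918139 the form longer by 93 bases had 23.8, 24.0 and 15.3 FPKM in DHT and 8.81, 0.316 and 1.79 FPKM in oil. Its share was 75.8%, 95.3% and 79.1% in DHT, against 42.7%, 2.14% and 5.56% in oil. At chr17:24906147-24906228 the form longer by 27 bases held 76.9%, 76.3% and 75.4% in DHT, against 100%, 97.8% and 100% in oil. The shorter form of this second pair had 2.25, 4.94 and 4.11 FPKM in DHT and at most 0.316 FPKM in oil. In the second oil library that form and the longer form of the first pair were listed at the same 0.316 FPKM. The 2 pairs may therefore rest on shared transcripts and are not 2 separate results. The groups did not overlap at either pair, with log2 ratio differences of 5.20 ± 1.15 and -3.14 ± 0.59 (SE; limma, Benjamini-Hochberg adjusted p = 0.351 for both).

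Alas1, the first enzyme of heme synthesis outside red cells, has acceptors 3 bases apart at chr9:106238075-106238239. The longer form had 4.51, 4.91 and 2.26 FPKM in DHT and 1.75, 3.45 and 0.378 FPKM in oil. The shorter form was listed at 0 in all 3 DHT libraries and had 1.74, 3.05 and 3.77 FPKM in oil. A form listed at 0 in an FPKM table may be a failed estimate, and the tables do not tell these apart.

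Citron kinase, a kinase of cytokinesis encoded by Cit, had nearly the same shares in all DHT libraries. Its donor form longer by 87 bases held 54.4%, 54.6% and 54.8% in DHT, against 7.95%, 9.32% and 35.3% in oil. For the nucleoporin Nup88 the acceptor form longer by 15 bases held 67.5%, 65.3% and 77.1% in DHT and 37.5%, 7.79% and 27.6% in oil. In Inpp4a, a phosphatase of phosphoinositides, the longest of 3 donor forms held 100%, 90.2% and 100% in DHT, against 78.0%, 49.9% and 50.1% in oil. Of the other groups on the higher side, Wac, an adaptor of histone H2B ubiquitination, held 98.5% to 100% in DHT and 67.0% to 84.9% in oil. Apc, the scaffold of the beta-catenin destruction complex, held 24.5% to 72.6% in DHT, and its longest event, a retained-intron form, was listed at 0 in all oil libraries. The other Apc events do not overlap each other and are joined only by that form. Its share therefore does not measure a choice between adjacent splice sites.

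On the lower side stood Ccser2, where the donor form longer by 48 bases had 0.139, 0.428 and 0 FPKM in DHT and 7.79, 2.89 and 2.59 FPKM in oil. Its partner had 16.5, 14.9 and 13.002 FPKM in DHT and 11.2, 7.46 and 10.1 FPKM in oil. The longer form's share was therefore at most 2.79% in DHT and at least 20.4% in oil, and the log2 ratio differed by -3.35 ± 0.60 (SE; limma, Benjamini-Hochberg adjusted p = 0.351). Cdipt, which makes phosphatidylinositol, showed a similar split, with 0.177%, 2.46% and 2.43% in DHT and 23.2%, 18.7% and 27.2% in oil for the acceptor form longer by 49 bases.

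Kidins220 encodes a membrane scaffold of neurotrophin receptors, and its acceptor form longer by 76 bases held 33.0%, 44.4% and 27.0% in DHT, against 100%, 67.7% and 100% in oil. In Parp6, a mono-ADP-ribosyltransferase, no form was near 0 in any library. Its donor form longer by 60 bases held 34.1%, 20.6% and 29.5% in DHT, against 65.4%, 58.9% and 48.6% in oil. Rian, a noncoding RNA of the imprinted Dlk1 and Meg3 region, held 77.0%, 62.1% and 59.7% in DHT and 99.9%, 99.7% and 85.0% in oil for the acceptor form longer by 16 bases. The clathrin assembly gene Snap91 and the zinc finger gene Zfp382 completed the 8, with the longest form listed at 0 in 2 and 3 of the DHT libraries.

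**Figure D4:**
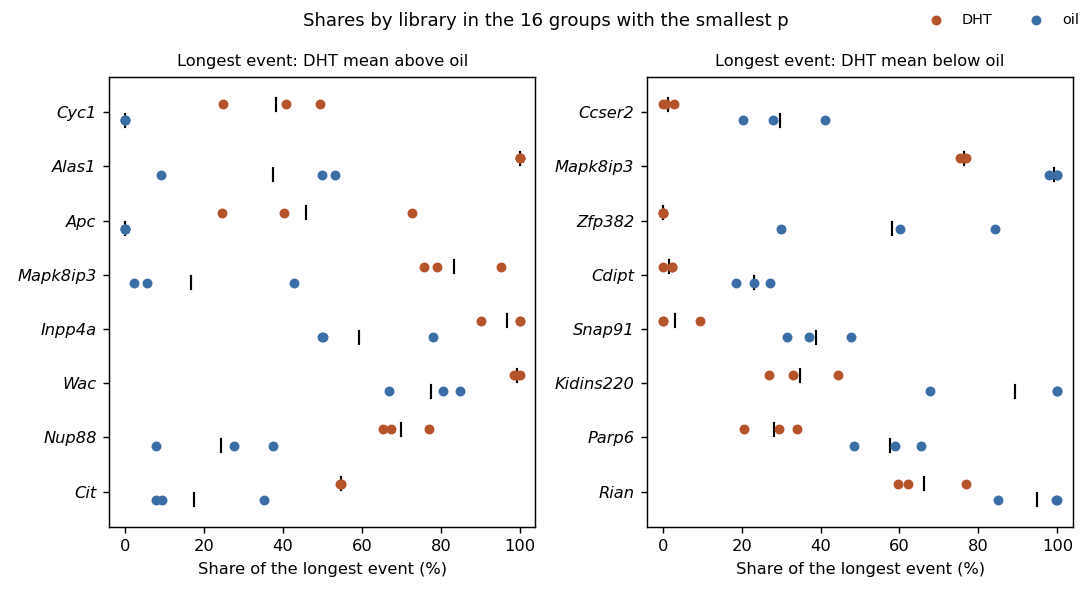
Share of the longest event in percent (horizontal axis) in each library, DHT above oil, for the 8 groups with the smallest p in each direction; points are libraries and black ticks the group means (n = 3 each). DHT and oil points do not overlap in any of the 16 groups, none of which passed the adjusted test.

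A further list held genes known for alternative exon ends. In Bin1 the most abundant member was a 148-base exon at chr18:32424820-32424967. It held 31.0%, 33.5% and 33.3% of its group in DHT and 32.8%, 31.4% and 33.1% in oil. The ordinary exons of that group do not overlap each other and are joined only by its long retained-intron events. The share of this exon is therefore mostly set against different exons of Bin1 and does not measure the use of an alternative exon end.

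In 2 of the 9 groups on that list the DHT and oil libraries did not overlap, against 9.03% of all groups with a share in every library. The 9 include Mapt, which lacks a share in some libraries, and nothing is read from so few groups. The phosphatase Ptprs, a receptor of proteoglycans at axons, had a longest form at 46.2%, 9.16% and 57.7% in DHT and 95.4%, 89.1% and 99.0% in oil, on a level of that form from 0.0357 to 7.76 FPKM between libraries. Gnas, which encodes the stimulatory G protein alpha subunit, had its longest form listed at 0 in all DHT libraries and at 89.9%, 12.2% and 27.9% in oil. Both had a retained-intron longest event, and neither passed the adjusted test (limma, Benjamini-Hochberg adjusted p = 0.913 for Ptprs and 0.912 for Gnas). The shorter Ptprs form averaged 5.63 FPKM in DHT and 0.049 FPKM in oil, so it met the minimum only through the DHT libraries. The longest Gnas form averaged 0 FPKM in DHT and 6.16 FPKM in oil, and met it only through the oil libraries. The rule thus favoured a difference in share in both, and their values are given as a description. The pair of Mapt, the gene of tau, was listed at 0 for both forms in 1 library of each group.

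Acceptors 3 bases apart are the smallest of the common differences, and the most abundant such pairs were unequal in how well they held. In Rnf44, a RING finger gene, the longer form held 12.4%, 14.99% and 15.8% in DHT, against 9.82%, 14.3% and 12.9% in oil. For Hgs, which encodes the ESCRT component HRS, it held 23.8% ± 6.13 in DHT and 23.3% ± 7.49 in oil (SD, n = 3 each). In Mical3, an oxidoreductase that takes actin filaments apart, it held 63.6% ± 16.2 in DHT and 63.1% ± 12.6 in oil. DHT and oil libraries overlapped in all 3.

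Usp19, a deubiquitinase, had a longer form at 68.6%, 46.3% and 80.5% in DHT and 84.9%, 87.5% and 79.6% in oil. Eno2, the neuronal enolase, had 100%, 99.9% and 52.2% in DHT and 100% in each oil library. Rpl10a, Dctn2 and the pair whose identifier is Mir8101 in Hdac5 spread over at least 46.9 points among the 6 libraries. The adjusted p of the 8 pairs ran from 0.913 to 0.999 (limma, Benjamini-Hochberg).

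Several gene lists were read against all groups, of which 416 had a higher ratio of the longest event in DHT and 400 a lower one, with a median difference of 0.02 on the log2 scale. Of 53 splicing and RNA-binding factors, 16 held a member, in 19 groups. Their longest event had a higher ratio in DHT in 14 groups and a lower one in 5, with a median of 0.42, and DHT and oil did not overlap in 5 of the 19, against 9.03% of all groups with a share in every library. No group passed the adjusted test and 2 had an unadjusted p under 0.05, against 5.15% of all groups. These 2 were Hnrnpu and a group of Celf4. Celf4, Hnrnpc and Qk each count more than once among the 19. In Hnrnpu, Srsf1, Srsf11 and Tra2a the longest event is a retained-intron form. The split in direction was not tested, and nothing is read from counts of so few groups.

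Celf4, an RNA-binding protein of excitatory neurons, had a donor form longer by 60 bases at 44.9%, 45.8% and 40.5% in DHT, against 22.1%, 1.41% and 21.2% in oil. Its other donor pair, 30 bases apart, stood at 70.1%, 57.6% and 44.1% in DHT and 42.3%, 6.60% and 33.0% in oil. Neither pair overlapped between DHT and oil. Both pairs count among the 5, but they had similar summed means (38.2 and 39.4 FPKM) and may rest on the same transcripts. They are not 2 separate results. Hnrnpu, a nuclear scaffold and splicing factor, had a retained-intron event at 44.7%, 16.8% and 29.0% in DHT and 0%, 0% and 11.4% in oil. That event had 4.72, 3.48 and 4.91 FPKM in DHT and 0, 0 and 1.82 FPKM in oil. It met the minimum only through the DHT libraries, so its share and p are given as a description. Tardbp, the gene of TDP-43, and Hnrnph1 were the other 2 genes without overlap, both with lower shares of the longer form in DHT. The adjusted p ranged from 0.787 to 0.913 over these 5 groups (limma, Benjamini-Hochberg).

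Of 60 synaptic genes 16 held a member, and the longest event's ratio was higher in DHT in 7 groups and lower in 14, with a median of -0.37. DHT and oil overlapped in each of the 20 groups with a share in all 6 libraries, while 9.03% of all such groups did not overlap. The other, a donor pair of the active zone gene Pclo, was listed at 0 for both forms in all 3 oil libraries and 1 DHT library. Of the 21 groups, 1, of the synaptotagmin gene Syt7, had an unadjusted p under 0.05 (limma), against 5.15% of all groups. The longest Syt7 event, a retained-intron form, had 0 FPKM in all DHT libraries and 3.93, 0 and 9.20 FPKM in oil. It met the minimum only through the oil libraries, so its p is given as a description. Counts this small set the list apart from all groups in neither respect. The scaffold gene Dlgap1 of the postsynaptic density, with an acceptor form longer by 84 bases, held 79.3%, 75.4% and 71.3% in DHT and 81.8%, 79.9% and 78.9% in oil. Rims1, an organizer of the active zone, held 86.0% ± 5.58 in DHT and 83.9% ± 1.52 in oil for the form longer by 27 bases (SD, n = 3 each).

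Ion channel genes gave 10 groups from 9 of 43 genes, 4 with a higher and 6 with a lower ratio in DHT. No group was without overlap, against 9.03% of all groups, and nothing is read from so few groups. The inositol trisphosphate receptor Itpr1 was among the steadiest, with a donor form longer by 27 bases at 74.5%, 71.5% and 69.4% in DHT and 74.3%, 76.3% and 71.2% in oil. Kcnh1, a voltage-gated potassium channel, held 53.3% ± 4.10 in DHT and 49.7% ± 4.37 in oil for the donor form longer by 81 bases (SD, n = 3 each). The myelin list gave 5 groups from 3 of 18 genes, 3 higher and 2 lower in DHT. None failed to overlap, again against 9.03% of all groups.

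Genes of steroid receptors, their chaperones and their partners are those closest to the treatment. Only 3 of 29 held a member, among them the corepressor Ncor1 and the chaperone Hsp90aa1, in 6 groups. The ratio was higher in DHT in 3 and lower in 3. All 6 overlapped, but only 9.03% of all groups did not, so nothing is read from that count. The donor form of Ncor1 longer by 12 bases held 94.2% ± 4.31 in DHT and 94.4% ± 3.52 in oil (SD, n = 3 each).

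Levels, unlike shares, depend on library scale. The members summed to 13352, 12742 and 12986 FPKM in DHT and 12124, 11842 and 11479 FPKM in oil. The level test called 25 of all 61049 events (0.041%) and 1 of the 1710 members (0.0585%), the Cyc1 exon, which met the minimum only through the DHT libraries. Since FPKM chose the members, nothing is read from their count. At an unadjusted p under 0.05, 76 members were higher in DHT (4.44%) and 41 lower (2.4%), against 4.69% and 1.72% of all events. With each library centred on its median, the split was 52 higher and 51 lower among members, and 1744 higher and 1550 lower among all events. The median log2 change was 0.11 for members and 0.08 for all events.

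The libraries also differ in tissue markers. Of 8 markers of hippocampal pyramidal and granule neurons, 4 averaged over 1 FPKM (Slc17a7, Camk2a, Wfs1 and Prox1) and Neurod2 was at 0. Neurod6, C1ql2 and Fibcd1 averaged 0.043, 0.14 and 0.85 FPKM. Camk2a (208 FPKM) and Slc17a7 (56.9 FPKM) made up most of the sum. The summed level of the 8 markers ran from 213 to 382 FPKM in DHT and from 166 to 289 FPKM in oil. Of 9 striatal markers 8 averaged over 1 FPKM, with Drd1 at 0, and their sum ran from 185 to 349 FPKM in DHT and from 266 to 297 FPKM in oil. Choroid plexus markers summed to 0.939 to 30.7 FPKM in DHT and 3.11 to 79.5 FPKM in oil. Blood markers summed to 55.8 to 317 FPKM in DHT and 68.5 to 128 FPKM in oil. Among them Hba-a1 was listed at 0 in all libraries, while Hbb-bs averaged 129 FPKM. A marker listed at 0, here as for Neurod2 and Drd1, may be a failed estimate and is not read as absence. In such bulk tissue fewer cells of a type and less RNA per cell cannot be told apart, and the part of cell makeup in the shares was not tested.

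Back-splice junctions, which join a donor to an upstream acceptor and mark circular RNAs, gave a second view of the same exon ends from separate read counts. A circular RNA absent from a library's list had fewer than 2 reads there, and counts of 0 below mean that. The members offered 853 sites with alternative ends. Circle reads fell on 71 of them, and 33 had at least 10 reads over the 6 libraries. After sites with a retained-intron event and a Y-linked locus were set aside, 21 sites with 2 ends and 2214 reads remained.

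At 16 of these 21 sites most circle reads lay at the end that also had more FPKM summed over the 6 libraries, at 14 they lay at the longer end, and at 11 all reads lay at 1 end. Library by library, the end with most circle reads had more FPKM in all 6 libraries at 8 sites, in 4 or 5 libraries at 7 sites and in 3 or fewer at 6 sites. At Dlgap1 the longer acceptor took 154, 124 and 96 reads in DHT and 106, 65 and 71 reads in oil. The shorter acceptor took 3, 4 and 2 reads in DHT and 3, 2 and 0 reads in oil. The longer end thus had 97.8% of the circle reads, with 77.9% of the FPKM. In Crebrf, a regulator of CREB3, the acceptor that adds 27 bases took 43, 21 and 33 reads in DHT and 37, 34 and 32 in oil, against 24 reads in all at the shorter acceptor.

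In Odf2, which encodes a protein of the mother centriole, the longer acceptor took 40, 59 and 43 reads in DHT and 22, 42 and 18 reads in oil, with 27 reads in all at the shorter acceptor. In Ralgapb, a subunit of a Ral GTPase-activating complex, all 477 reads lay at the longer acceptor, while the event values differed among libraries. The longer form had 0, 8.45 and 26.3 FPKM in DHT and 0, 2.78 and 0 FPKM in oil, and the shorter form had 0.0059, 0.00054 and 14.8 FPKM in DHT and 0.0024, 7.03 and 0.201 FPKM in oil. The longer form thus led in 2 of the 6 libraries, and its 63.0% of the summed FPKM came mainly from the third DHT library. Junction reads are counts of circles and FPKM covers linear RNA as well, so the shares need not be equal.

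At 5 sites circle reads lay mostly at the end with less FPKM. In Nyap2, a phosphoprotein that binds PI3 kinase, all of 9, 13 and 11 reads in DHT and 9, 5 and 5 reads in oil used the shorter donor, which had 40.8% of the FPKM. All 48 reads of Kcnh1 used its shorter donor, at 48.2% of the FPKM. Cnot2, a subunit of the CCR4-NOT deadenylase, showed the reverse, with 67 reads at the longer acceptor and 6 at the shorter, while the longer had 39.0% of the FPKM. The others were Ica1l, with 28 reads at the acceptor that adds 10 bases and 4 at the shorter, and Pdpr, with 2 and 9 reads.

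**Figure D5:**
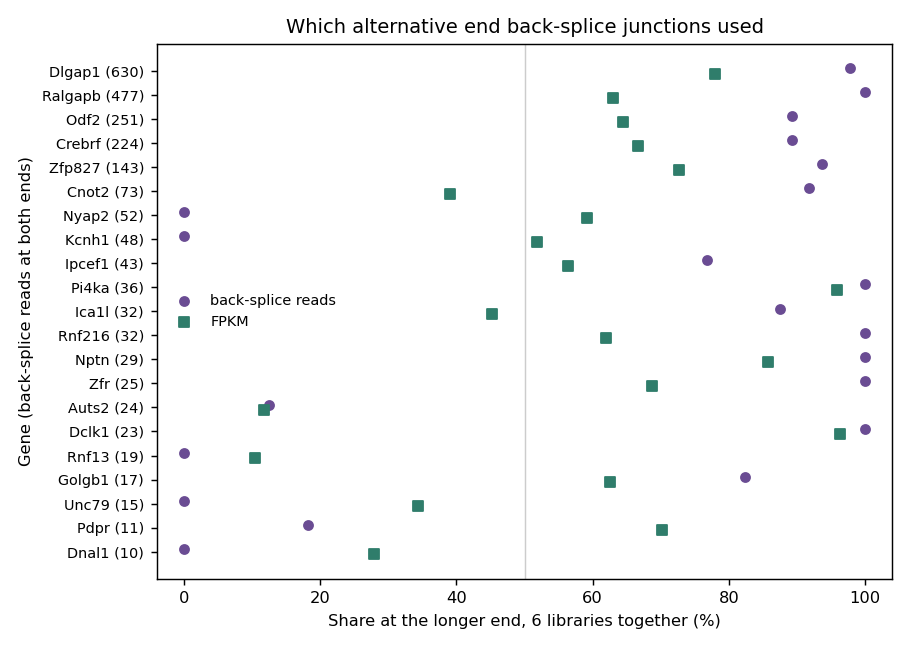
Share at the longer end in percent (horizontal axis) of back-splice reads (purple circles) and of FPKM (green squares), 6 libraries together, for 21 sites with 2 ends (vertical axis: gene, with the number of back-splice reads). At Dlgap1 the shares are 97.8% of reads and 77.9% of FPKM, and at Nyap2 and Kcnh1 no read lies at the longer end.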

How the data were processed

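The submitters' processing notes list the aligners BWA and HISAT2 2.0.1, bcl2fastq 2.17.1.14, cutadapt and the build mm9, and assign none of them a step. No source used here names the assembler, the FPKM tool or the circular RNA caller. The authors deposited, for each of the 6 libraries, FPKM per event of assembled loci and counts of back-splice reads per circular RNA, listing those with at least 2 reads.

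Events of a locus that share at least 1 base were put in 1 group. Shares were tested with limma 3.58.1 (R 4.3.3, empirical Bayes with a trend, two-sided) on log2((event + 0.5)/(rest of the group + 0.5)) over the 1710 members. Levels were tested on log2(FPKM + 0.5) over 61049 events with a mean of at least 1 FPKM. P-values were Benjamini-Hochberg adjusted, with a threshold of 0.05, and fold changes on these scales understate changes of faint events. Among events above 0 in all libraries, at most 0.0392% had the same value in 2 libraries. The 5 events just inside the threshold averaged 1.00 FPKM and the 5 just outside 0.998 FPKM.

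The named groups were those with the 10 highest levels, the 8 smallest p in each direction, those of a list of known alternative exon ends, the 8 most abundant 3-base pairs and the 5 with the most events (Bin1, Malat1, Arpp21, Unc13a and Chgb). The members, lists and rules were chosen with earlier results of these data known. Alternatives covered the pseudocount, the minimum level, the identifier, the overlap, the scale of the share, library centring, the variance trend and leaving out each library. Circle reads were compared by counts alone, with no test. Some members of these sets are not reported here.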

Additional observations from a re-analysis of the deposited data

How the results depend on the processing

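The share test called no event under any of its 15 alternatives (limma, Benjamini-Hochberg), and the smallest adjusted p was 0.0804, without the third oil library. The number of events at an unadjusted p under 0.05 was 168 with a minimum of 0.5 FPKM, 12 with a minimum of 5 FPKM and 52 with a reciprocal overlap of at least 50%, where other numbers of events were tested (3011, 215 and 1158). It ranged from 77 to 102 when each library was left out, against 83. The log2 ratios of the 16 groups with the smallest p kept their sign in all 224 alternative values, none past the threshold. Those groups were picked on the same values, so the kept sign lends them no weight.

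The level test called 11 events with a pseudocount of 0.1 FPKM, 3 with no minimum, 45 without the variance trend and 6 to 25 when each library was left out, against 25. With no minimum, 6936 events had an unadjusted p under 0.05. Members called numbered 0 with a pseudocount of 0.1 FPKM, 0 with no minimum, 2 without the trend and 0 to 2 when each library was left out. The Cyc1 exon's adjusted p ranged from 0.00813 to 0.0831 over the alternatives. The cause of these changes was not tested. No paired analysis was possible because the labels pair no DHT library with an oil library: their titles share no number, and the order of libraries used here is only a name. Depth per event is unknown, and a share in a faint group moved more between libraries than in an abundant group.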
